A study of Mus musculus with 48 samples.

Results

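Liver transcripts of 10 glutathione S-transferase genes were described across 8 groups of mice: 5 of the mu class (Gstm1, Gstm2, Gstm3, Gstm4 and Gstm6), 3 of the alpha class (Gsta2, Gsta3 and Gsta4) and 2 of the theta class (Gstt1 and Gstt3). The genes were listed by symbol, and all 10 were found among the 55414 Ensembl identifiers of the count table and were among the 15414 genes that passed the filter on low counts. The smallest count of any member in any mouse was 39 reads, for Gsta2.

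Cytosolic glutathione S-transferases join the tripeptide glutathione to electrophilic compounds, which makes them soluble and ready for export from the hepatocyte. The mu and alpha enzymes are abundant liver proteins that act on drugs, epoxides and products of lipid peroxidation, Gsta4 being known for its action on reactive aldehydes, whereas the theta enzymes act on small halogenated compounds. Several of these genes respond to the transcription factor NRF2 and to sex hormones or the sex pattern of growth hormone release in mouse liver.

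The livers came from FCG mice on a C57BL/6 background, a model of all core combinations of sex chromosomes and gonads, in which Sry is absent from the Y chromosome and is supplied by a transgene (SryTg) on an autosome, so that testes (Te) or ovaries (Ov) form with either an XX or an XY complement. The XX Ov and XY Ov mice therefore lacked the transgene, and the XX Te and XY Te mice carried it, and this transgene cannot be told apart from the testes in any gonadal contrast. Every mouse was fed a high-fat diet (HFD; 60% of calories from fat) from 15 to 17 weeks of age, and there was no chow group. Mice were left with their gonads (Intact) or were gonadectomised (GDX) at 75 days of age, and each of the 8 combinations of chromosomes, gonads and treatment held 6 mice. By the labels the Intact mice ate the diet for 11 weeks and the GDX mice for 15 weeks (the study's methods give other durations), so that removal of the gonads, the length of the diet and the age at collection cannot be told apart.

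Between 13071874 and 20045141 reads per liver were counted on genes. Xist was higher in each XX than in each XY mouse, and 4 Y-linked genes were higher in each XY than in each XX mouse. The libraries of the 2 treatments also differed as libraries. Reads outside annotated genes were 3.47 to 6.201% in Intact and 8.52 to 11.3% in GDX mice, and multimapping reads were 10.7 to 18.9% and 8.59 to 10.8%. A length balance, the median log2 level of 1573 genes with transcripts under 1200 nt minus that of 4312 genes over 4000 nt, each gene centred on its mean over all mice, had a median of 0.33 in Intact mice (range -0.53 to 1.35) and -0.44 in GDX mice (-0.60 to -0.27). Of the members, Gstm2, Gstm6, Gsta2, Gsta3, Gsta4 and Gstt1 have transcripts under 1200 nt. Libraries that stood apart were XX Ov Intact 6, which had the lowest scaling factor (0.742) and the lowest Xist of the XX mice (123 CPM), XX Te Intact 4, which had traces of Y-linked reads (up to 3.88 CPM for Eif2s3y), and XX Te Intact 5, a mouse that the study left out of some of its panels. Results that change without these 3 libraries are given below.

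The members are close relatives, and this bears on how far their counts can be separated. The 5 mu genes lie in a cluster on 1 strand of chromosome 3, Gsta2 and Gsta4 lie on chromosome 9, Gsta3 on chromosome 1, and Gstt1 and Gstt3 next to each other on chromosome 10. The coding sequences of the mu genes are all 657 nt long and were 79.1 to 89.5% identical in pairs, those of Gstm1 and Gstm3 the most alike. Within the alpha class identity was 77% for Gsta2 and Gsta3 and 68.5% and 68.7% for the pairs with Gsta4, and Gstt1 and Gstt3 shared 75.8%. The 60 coding bases that vary least among the mu genes (positions 193 to 252, with 6 variable positions) are shown to make visible where a short read cannot tell some of them apart, with capitals for bases that differ from Gstm1:
Gstm1: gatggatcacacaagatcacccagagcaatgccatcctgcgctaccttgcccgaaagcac
Gstm2: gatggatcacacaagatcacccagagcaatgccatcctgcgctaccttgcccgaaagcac
Gstm3: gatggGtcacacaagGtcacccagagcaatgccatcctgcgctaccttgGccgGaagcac
Gstm4: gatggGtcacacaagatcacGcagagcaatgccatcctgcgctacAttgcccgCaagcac
Gstm6: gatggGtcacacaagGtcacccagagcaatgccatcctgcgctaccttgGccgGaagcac
In this stretch Gstm2 did not differ from Gstm1, nor Gstm6 from Gstm3. The end of the coding sequence (positions 598 to 657) varied most, with 34 variable positions, and shows where the same genes can be separated:
Gstm1: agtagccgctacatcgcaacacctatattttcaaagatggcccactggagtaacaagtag
Gstm2: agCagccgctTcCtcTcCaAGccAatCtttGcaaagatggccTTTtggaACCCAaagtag
Gstm3: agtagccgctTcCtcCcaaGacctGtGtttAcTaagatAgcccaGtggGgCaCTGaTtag
Gstm4: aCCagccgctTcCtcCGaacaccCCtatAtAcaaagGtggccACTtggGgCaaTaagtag
Gstm6: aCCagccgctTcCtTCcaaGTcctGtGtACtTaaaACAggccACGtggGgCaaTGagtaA
Of all stretches of 50 nt in the longest transcript of each gene, 14.8% for Gstm1, 5.62% for Gstm2, 17.3% for Gstm3 and 6.73% for Gstm6 also occurred in another gene, and none for Gstm4, Gsta3, Gsta4 or Gstt1. For Gsta2 the share was 65.4%, held mainly in common with Gsta1 and predicted genes, and for Gstt3 it was 26%, all of it shared with 1 gene known by a clone name. The Gsta2 counts are therefore the least certain of the 10, and Gstm3 and Gstm6 overlap on the same strand in the NCBIM37 annotation.

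The 250 bases upstream of 1 annotated start of each of 4 members are printed from RefSeq (GRCm38.p6), with capitals for matches to the motifs searched on both strands, which were TGACNNNGC (the core of the antioxidant response element bound by NRF2), CCAAT (the box bound by NF-Y), TATAAA (the box near many starts that the basal machinery binds), the letters GGGCGG (a GC box), TTCNNNGAA (the form of a STAT5 site) and TGTTCT (a steroid receptor half-site):
Gstm1 (chr3:108017974-108018223, minus strand): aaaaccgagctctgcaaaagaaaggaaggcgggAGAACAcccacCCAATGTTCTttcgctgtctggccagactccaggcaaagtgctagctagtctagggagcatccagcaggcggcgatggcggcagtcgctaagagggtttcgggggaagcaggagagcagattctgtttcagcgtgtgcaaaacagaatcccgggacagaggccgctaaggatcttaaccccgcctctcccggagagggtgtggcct
Gstm3 (chr3:107969175-107969424, minus strand): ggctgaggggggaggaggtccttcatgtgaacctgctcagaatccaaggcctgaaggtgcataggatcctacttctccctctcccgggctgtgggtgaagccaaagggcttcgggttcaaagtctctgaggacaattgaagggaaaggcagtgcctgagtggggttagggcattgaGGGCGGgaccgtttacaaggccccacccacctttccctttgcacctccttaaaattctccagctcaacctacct
Gsta2 (chr9:78347146-78347395, minus strand): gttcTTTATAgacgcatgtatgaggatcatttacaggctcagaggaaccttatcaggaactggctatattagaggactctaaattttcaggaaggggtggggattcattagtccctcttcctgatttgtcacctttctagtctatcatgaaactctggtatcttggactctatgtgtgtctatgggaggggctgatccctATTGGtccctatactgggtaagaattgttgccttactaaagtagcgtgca
Gsta3 (chr1:21240335-21240584, plus strand): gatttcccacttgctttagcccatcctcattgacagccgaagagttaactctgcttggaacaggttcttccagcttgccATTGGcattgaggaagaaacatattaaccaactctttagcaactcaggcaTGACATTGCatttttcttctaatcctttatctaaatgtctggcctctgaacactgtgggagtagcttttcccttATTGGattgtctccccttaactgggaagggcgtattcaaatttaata
An entry was found for 9 of the 10 members, with Gsta4 the exception, and for Gstm1, Gstm4, Gstm6 and Gstt3 it had more than 1 start. Of these, Gsta3 had the antioxidant element core, TGACATTGC, at 121 to 113 bases before its start, a motif that 10.2% of 32817 promoter windows of this length held. A CCAAT box stood in a window of every matched member other than Gstm3, against 33.8% of all windows, and the 6 bases of TGTTCT or its complement stood in windows of Gstm1 and Gstm6, against 16.1% of all. TATAAA or its complement stood in windows of Gstm1 and Gsta2 (12.4% of all), GGGCGG in those of Gstm3 and Gstm4 (32.7%), and TTCNNNGAA in none of the members (7.01%). The TATAAA of Gstm1 lies in the window of its other start, which is not printed. In the Gstm1 window printed here the CCAAT box and a TGTTCT overlap by 1 base. A member with more than 1 start was counted if any of its windows held a match, whereas the shares given are of single windows. These matches are descriptions of the letters only.

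Levels per length, as mean CPM (reads of a gene per megaread of the library, scaled by TMM) per kb of the longest transcript over 48 mice, ran from Gsta3 at 2214 through Gstm1 (661) and Gstt1 (216) to Gsta4 (71.0), Gstm6 (48.6), Gstm2 (42.4), Gstt3 (30.8), Gstm3 (21.2), Gstm4 (18.8) and Gsta2 (10.9). An alpha gene and a mu gene thus led the 10 by far. All further levels are TMM-scaled CPM, and they are compared only within a gene. As each liver was measured in bulk, fewer cells of a type and less RNA per cell cannot be told apart.

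**Figure D1:**
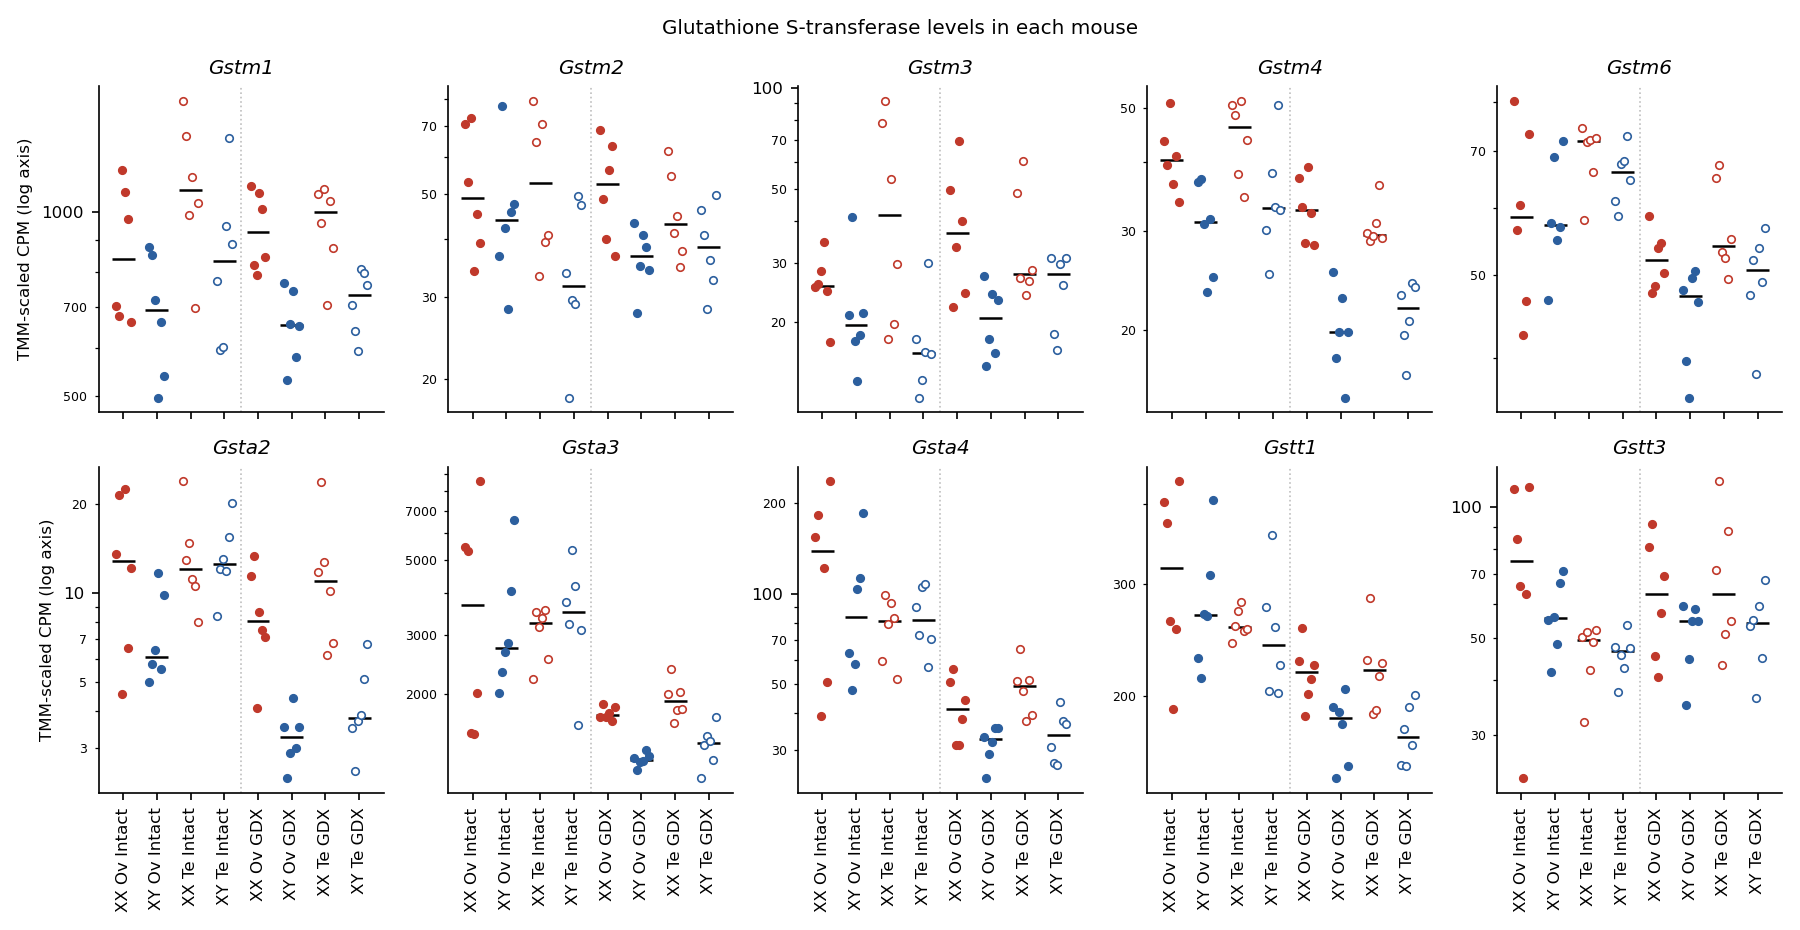
TMM-scaled CPM (log axis) of each member in each mouse, by group. Each point is 1 mouse, red for XX and blue for XY, filled for ovaries and open for testes, and the bar is the median of 6 mice. The GDX groups stand right of the dotted line: Gsta3 there runs from 1129 to 2375 CPM, against 1524 to 8553 CPM in Intact mice.

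The spread within groups was itself uneven. The SD of log2 levels within groups was 0.702 for Gsta3 in Intact mice and 0.146 in GDX mice, and 0.691 and 0.290 for Gsta4. Over Ov and Te groups together it was higher in Intact than in GDX mice for each of the 10 members. In Te mice alone it was lower in Intact than in GDX mice for Gstm6 (0.124 and 0.191), Gsta2 (0.483 and 0.608) and Gstt3 (0.229 and 0.435). In Ov mice alone this held for Gstm3 (0.445 and 0.509). XX Ov Intact was the widest group for Gsta3, with 8553, 5459 and 5316 CPM in mice 6, 1 and 2 and 1524 to 2025 CPM in the other 3. The same 3 mice had the highest Gstt1 of the group (374 to 435 CPM) and the highest Gstt3 (84.5 to 111 CPM). Their length balance was 0.878 to 1.24, and that of the other 3 mice -0.32 to 0.308. In XY Ov Intact mice Gsta3 ran from 2024 to 6557 CPM, and the highest mouse, number 6, had the highest length balance of all 48 (1.35).

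**Figure D2:**
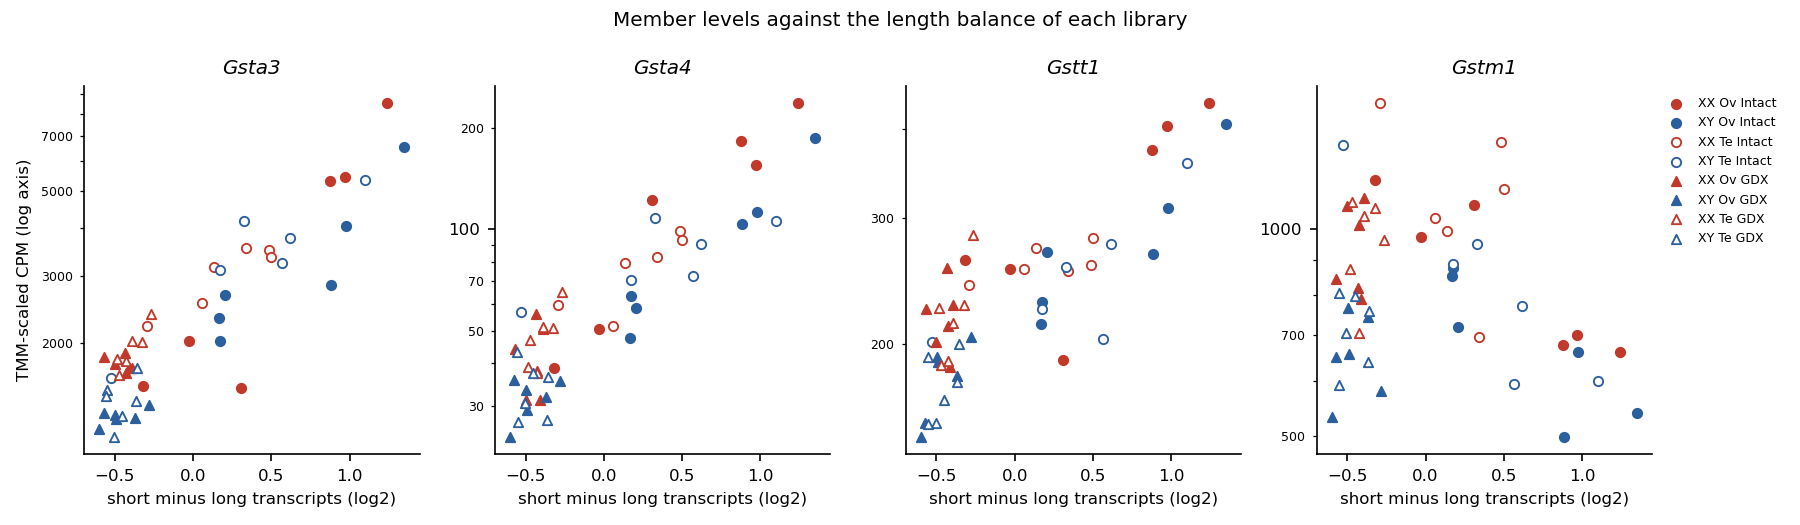
TMM-scaled CPM (log axis) of Gsta3, Gsta4, Gstt1 and Gstm1 in each mouse against the length balance of its library (log2, short minus long transcripts). Circles are Intact and triangles GDX mice. The 7 mice with a balance of 0.878 or more include the 5 with the highest Gsta3 (5316 to 8553 CPM), and Gstm1 is at 497 to 701 CPM in these 7, below the median of all mice (802 CPM).

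Loss of the gonads was addressed by the ovariectomy and castration contrasts, which compare GDX with Intact mice with the same gonads of origin. In edgeR's quasi-likelihood fit over all 48 mice, 6 members were lower after ovariectomy and none was higher, and 6 were lower after castration and 1 was higher, at a Benjamini-Hochberg adjusted p under 0.05 over all genes tested. Of all 15414 genes, 69.4% were called in the ovariectomy contrast (36% as higher and 33.4% as lower) and 63.3% in the castration contrast (33.4% as higher and 29.9% as lower), so that a call alone is a common outcome here. Of the genes called, 51.9% were higher after ovariectomy (66.1% with library totals in place of TMM) and 52.7% after castration (69.4% with library totals, 42% with the GC and length offsets described below). The median log2 fold change of the 10 members was -0.38 after ovariectomy and -0.36 after castration, beside 0.06 and 0.07 over all genes.

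The alpha genes fell most. In Ov mice Gsta4 had 38.9 to 237 CPM (median 108) with gonads and 24.2 to 56.1 CPM (median 34.4) without, and 9 of the 12 GDX mice lay below the lowest Intact mouse. Its log2 fold change was -1.62 ± 0.21 (SE; edgeR adjusted p = 7.0e-09). In Te mice it had 51.8 to 108 CPM (median 81.1) with and 26.7 to 65.2 CPM (median 38.3) without gonads, a change of -0.998 ± 0.20 (edgeR adjusted p = 5.2e-05), and 11 of 12 castrated mice lay below all intact ones. The groups overlapped in a few mice in both contrasts.

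Gsta3, the most abundant member per length, fell from 1524 to 8553 CPM (median 2752) in Ov Intact to 1190 to 1879 CPM (median 1520) in Ov GDX mice. That is a log2 fold change of -1.31 ± 0.20 (edgeR adjusted p = 3.2e-07), although the lowest Intact mice lay within the GDX range. In Te mice it fell from 1619 to 5364 CPM (median 3301) to 1129 to 2375 CPM (median 1681), by 0.99 ± 0.20 on the log2 scale (edgeR adjusted p = 4.6e-05).

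Gsta2 ran from 4.57 to 22.6 CPM (median 8.20) in Ov Intact and from 2.37 to 13.4 CPM (median 4.27) in Ov GDX mice, with a log2 fold change of -0.89 ± 0.23 (edgeR adjusted p = 0.00085). After castration the change was -0.93 ± 0.23 (edgeR adjusted p = 0.00056), from a median of 12.5 to 6.45 CPM. In XY mice the Te groups did not overlap, with 8.36 to 20.2 CPM in Intact and 2.50 to 6.74 CPM in GDX mice, a change of -1.67 ± 0.33 (edgeR adjusted p = 5.6e-05). In XX mice the castration change was -0.19 ± 0.32 (edgeR adjusted p = 0.66).

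Among the mu genes, Gstm4 and Gstm6 fell and the other 3 were not called. Gstm4 went from a median of 36.6 to 26.9 CPM after ovariectomy (log2 fold change -0.46 ± 0.10, edgeR adjusted p = 6.1e-05) and from 38.1 to 26.5 CPM after castration (-0.62 ± 0.10, edgeR adjusted p = 6.5e-07). Gstm6 changed by -0.30 ± 0.08 and -0.34 ± 0.08 (edgeR adjusted p = 0.0017 and 0.00056). Over 9 other settings its ovariectomy call was lost in 2 and changed sign in 1, and its castration call was lost in 2. With library totals in place of TMM the Gstm6 values were -0.065 and -0.14. Gstm1, the main mu transcript, had medians of 710 and 779 CPM in Ov Intact and Ov GDX mice and 972 and 802 CPM in Te Intact and Te GDX mice, with log2 fold changes of 0.01 (95% interval -0.24 to 0.26) and -0.24 (-0.49 to 0.01). For Gstm2 and Gstm3 the log2 fold changes ran from -0.17 to 0.25 over both contrasts, and all 4 intervals included 0.

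The theta genes parted. Gstt1 fell from 190 to 435 CPM (median 268) to 148 to 256 CPM (median 197) after ovariectomy, a log2 fold change of -0.61 ± 0.11 (edgeR adjusted p = 4.2e-06), and by 0.39 ± 0.11 after castration (edgeR adjusted p = 0.0021). Gstt3 was the member that rose, from 32.1 to 53.6 CPM (median 47.6) in Te Intact to 36.3 to 114 CPM (median 54.8) in Te GDX mice. The log2 fold change was 0.41 ± 0.17 (edgeR adjusted p = 0.030), 7 of 12 castrated mice lay above all intact ones, and the call was lost when 1 of 5 Te mice was left out (0.31 to 0.38; XX Te Intact 2, XY Te Intact 2, XX Te GDX 2, XX Te GDX 5 and XY Te GDX 6). This call was also lost in 1 of 9 other settings. After ovariectomy Gstt3 changed by -0.20 (95% interval -0.53 to 0.13).

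These contrasts moved together with the length balance, and a fit with offsets for GC content and transcript length in each library gave smaller changes for the alpha genes, Gstm4, Gstm6 and Gstt1. With the offsets Gsta4 fell by 0.81 after ovariectomy and 0.53 after castration (edgeR adjusted p = 4.4e-06 and 0.0015) and Gsta3 by 0.46 and 0.49 (edgeR adjusted p = 0.0012 and 0.00063), and Gstm4 by 0.28 and 0.55 (edgeR adjusted p = 0.024 and 2.9e-05). Gsta2 was at -0.09 and -0.50 (edgeR adjusted p = 0.76 and 0.070), Gstt1 at -0.15 and -0.09 (0.11 and 0.34) and Gstm6 at 0.22 and -0.04 (0.055 and 0.77), so the calls of these 3 genes were lost in both contrasts. Gstt3 stayed called after castration (0.44, edgeR adjusted p = 0.022), and Gstm3 was called as higher after ovariectomy (0.55, edgeR adjusted p = 0.045). Gstm2 after ovariectomy turned from -0.17 to 0.34 and was called in neither fit (edgeR adjusted p = 0.14 with the offsets). Marker sums also moved with removal of the gonads. That of 6 pancreatic acinar markers was 9.63 to 36.7 CPM in Te Intact and 4.53 to 9.10 CPM in Te GDX mice, and 5.36 to 14.1 and 4.53 to 7.19 CPM in Ov Intact and Ov GDX mice. That of 8 stellate cell and fibroblast markers had medians of 277 and 407 CPM in Te Intact and Te GDX mice (223 to 455 and 213 to 681 CPM) and of 345 and 451 CPM in Ov Intact and Ov GDX mice (272 to 444 and 301 to 776 CPM). Medians of 6 sinusoidal endothelium markers were 158 and 248 CPM in Te and 198 and 258 CPM in Ov mice. Those of 6 cholangiocyte markers were 28.9 and 37.4 CPM, and 25.3 and 40.5 CPM. Median neutrophil sums fell in both. Median Kupffer cell and lymphocyte sums rose in Te and fell in Ov mice. The acinar sum was nearly all Cela1 (at most 36.4 CPM), while Pnlip was at 0 in 48 of 48 mice, Prss2 in 47, Cpa1 in 46 and Ctrb1 in 45 (named after their values were seen). The part of these sums in the results was not tested.

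**Figure D3:**
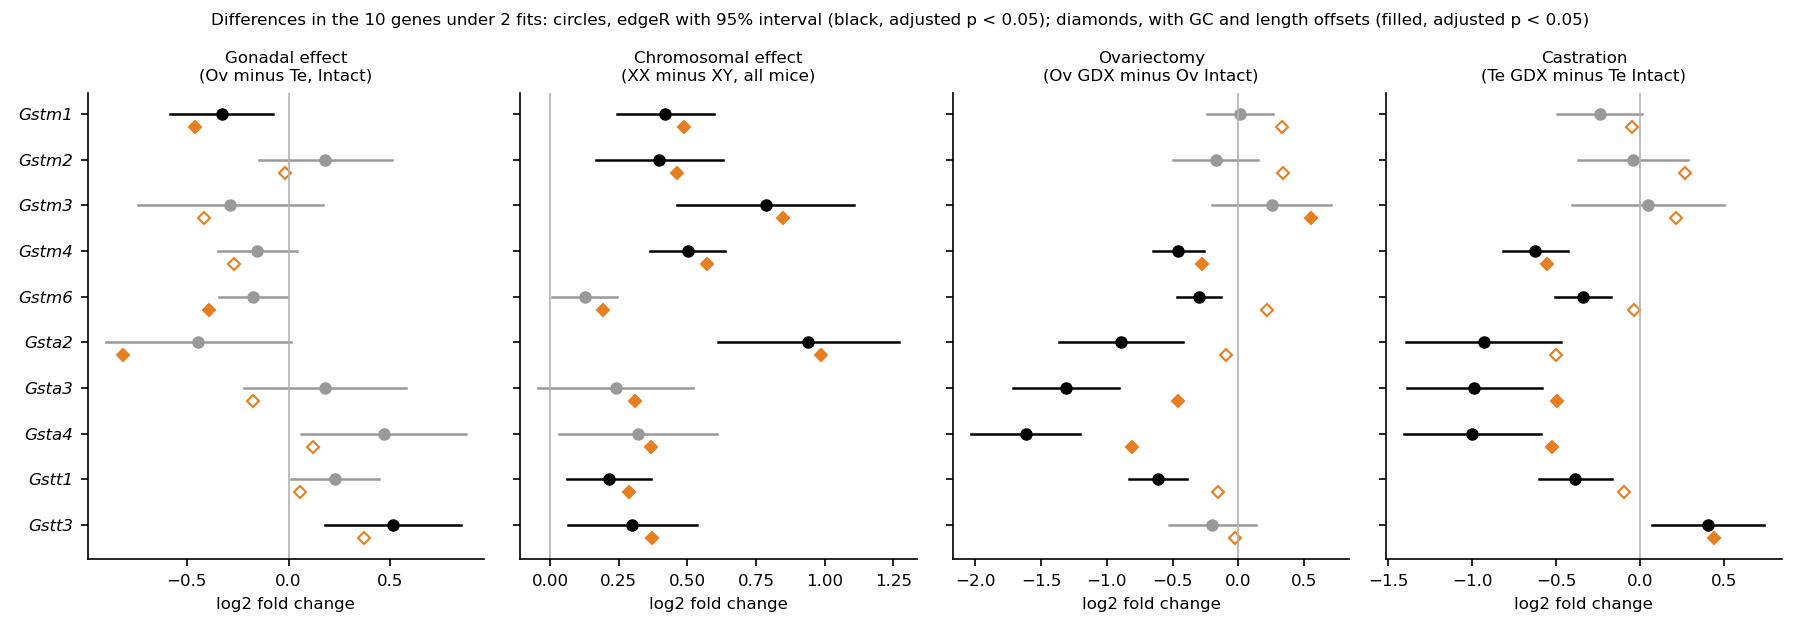
Log2 fold changes of the 10 members in 4 contrasts. Circles with 95% intervals are the edgeR fit (black where the adjusted p was under 0.05, grey otherwise), and diamonds are the fit with GC and length offsets (filled where the adjusted p was under 0.05). All diamonds of the chromosomal contrast are filled and above 0, and those of the alpha genes lie nearer to 0 than the circles in the ovariectomy and castration contrasts. In the chromosomal contrast the fit with offsets called 5461 of 13848 genes as higher in XX mice and 2039 as lower.

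Whether castration and ovariectomy differed was tested as a contrast of its own, and none of the 10 members was called, beside 5.6% of all genes (863 genes, and 23.4% at an unadjusted p under 0.05). The widest values were 0.62 ± 0.29 for Gsta4 (edgeR adjusted p = 0.18), which fell further after ovariectomy, and 0.60 ± 0.23 for Gstt3 (edgeR adjusted p = 0.11). Without XX Ov Intact 4 the Gstt3 value was 0.70 and was called. Split by chromosomes, ovariectomy called 3 members in XX (Gsta3, Gsta4 and Gstt1) and 6 in XY mice, and castration called 2 in XX (Gstm4 lower and Gstt3 higher) and 6 in XY mice, beside 55.1, 59.4, 37.1 and 56.7% of all genes. Whether XX and XY responses differed was tested over both kinds of gonads, as the chromosomes by GDX interaction described below.

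The gonadal contrast compared Intact mice with ovaries and with testes, and it shares its Ov Intact mice with the ovariectomy contrast and its Te Intact mice with the castration contrast. Of the members 2 were called, Gstm1 as lower and Gstt3 as higher with ovaries, beside 25.3% of all genes (14.1% higher and 11.3% lower). Of the genes called, 55.6% were higher with ovaries (68% with library totals, 36.4% with the offsets). Within XX and within XY mice none was called, beside 5.82 and 15.5% of all genes. Gstt3 had 23.9 to 111 CPM (median 64.6) in Ov Intact and 32.1 to 53.6 CPM (median 47.6) in Te Intact mice, and 9 of 12 Ov mice lay above all Te mice, although the lowest value of all belonged to an Ov mouse, XX Ov Intact 4. The log2 fold change was 0.51 ± 0.17 (edgeR adjusted p = 0.020). It was 0.44 and not called without XX Ov Intact 6, 0.43 without the 3 libraries that stood apart (edgeR adjusted p = 0.084), and 0.37 with the GC and length offsets (edgeR adjusted p = 0.085).

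Gstm1 had 497 to 1175 CPM (median 710) in Ov Intact and 595 to 1524 CPM (median 972) in Te Intact mice. Its log2 fold change was -0.33 ± 0.12 (edgeR adjusted p = 0.046), and the call was lost on leaving out any 1 of 15 mice (-0.34 to -0.25), each of them named in the closing section. It was also lost in 4 of 9 other settings, with library totals in place of TMM factors (-0.32, edgeR adjusted p = 0.12), without the filter on low counts (-0.34, 0.053), with 1 surrogate variable (-0.19, 0.13) and in a fit on the Intact groups alone (-0.33, 0.17). The call of Gstt3 was lost with 1 surrogate variable too (0.32, edgeR adjusted p = 0.13). The remaining members were not called: the values were -0.44 (95% interval -0.90 to 0.01) for Gsta2, 0.47 (0.06 to 0.87) for Gsta4, 0.23 (0.01 to 0.45) for Gstt1 and between -0.29 and 0.18 for Gstm2, Gstm3, Gstm4, Gstm6 and Gsta3. With the offsets Gsta2 (-0.81, edgeR adjusted p = 0.0076) and Gstm6 (-0.39, edgeR adjusted p = 0.0023) were called as lower with ovaries, and Gsta3 turned from 0.18 to -0.17, called in neither fit. The medians of marker sums differed between these groups as well, with ranges that overlap. The acinar sum, nearly all Cela1, is given above for Ov Intact and Te Intact mice, the sum of 7 Kupffer cell and macrophage markers had medians of 615 CPM (285 to 971) and 318 CPM (215 to 805), and that of 8 lymphocyte markers had medians of 16.1 CPM (3.66 to 44.6) and 4.74 CPM (1.75 to 13.7). Their part in these results was not tested.

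After gonadectomy the Ov and Te groups were close. None of the 10 members was called, beside 0.0908% of all genes (14 genes in edgeR, and 475 or 3.08% at an unadjusted p under 0.05; DESeq2 called 20 genes and no member). The log2 differences of the members ran from -0.41 for Gsta2 (95% interval -0.88 to 0.07) to 0.05. The gonads by chromosomes interaction in Intact mice called no gene at all in edgeR, with 989 genes (6.42%) at an unadjusted p under 0.05, and 3 genes in DESeq2. Gstm3 was the widest member there (-1.22 ± 0.45, edgeR adjusted p = 0.66).

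The chromosomal contrast compared XX with XY mice over all 4 combinations of gonads and treatment, 24 mice against 24. All 10 log2 fold changes were above 0, and 7 members were called as higher in XX livers, 4 mu, 1 alpha and 2 theta, beside 36.7% of all genes (21.9% higher and 14.8% lower). Of the genes called, 59.8% were higher in XX mice (28.2% with library totals, 72.8% with the offsets). The median of the members was 0.36, beside 0.05 over all genes.

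In the mu class Gstm3 differed most, with 17.5 to 91.4 CPM (median 28.5) in XX and 11.9 to 41.1 CPM (median 18.3) in XY mice. Its log2 fold change was 0.79 ± 0.16 (edgeR adjusted p = 9.9e-05), and 7 of 24 XX mice lay above all XY mice. Within XX Te Intact it ran from 17.8 to 91.4 CPM, with mice 1, 2 and 4 at 53.6 CPM or more and the other 3 under 30 CPM. Gstm4 had 28.4 to 51.4 CPM (median 36.4) in XX and 15.1 to 50.6 CPM (median 24.6) in XY mice, a log2 fold change of 0.50 ± 0.07 (edgeR adjusted p = 6.6e-08).

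Gstm1 had 662 to 1524 CPM (median 1002) in XX and 497 to 1322 CPM (median 712) in XY mice, a log2 fold change of 0.42 ± 0.09 (edgeR adjusted p = 0.00015). Gstm2 had medians of 46.9 and 37.6 CPM and a log2 fold change of 0.40 ± 0.11 (edgeR adjusted p = 0.0049). Gstm6 was not called, at 0.13 (95% interval 0.01 to 0.24, edgeR adjusted p = 0.090). Over the mu genes the XX and XY ranges overlapped, and the shifts were of 1.32 to 1.72 fold for the 4 that were called.

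Gsta2 had the widest difference of the 10, with 4.10 to 23.9 CPM (median 11.3) in XX and 2.37 to 20.2 CPM (median 5.34) in XY mice and a log2 fold change of 0.94 ± 0.16 (edgeR adjusted p = 8.8e-06). Gsta3 and Gsta4 were not called, at 0.24 (95% interval -0.04 to 0.52) and 0.32 (0.03 to 0.61). Of the theta genes, Gstt1 differed by 0.21 ± 0.08 (edgeR adjusted p = 0.024) and Gstt3 by 0.30 ± 0.12 (edgeR adjusted p = 0.040). Each theta call was lost in 6 of 9 other settings. These were the fit without the 3 libraries that stood apart (0.14 and 0.22), library totals (0.11 and 0.18), DESeq2 size factors (0.19 and 0.28), the DESeq2 Wald test (0.19 and 0.28), no filter on low counts (0.17 and 0.25) and a minimum of 10 counts in every mouse (0.18 and 0.26). The call of Gstm2 was lost with library totals (0.29, edgeR adjusted p = 0.079). With the GC and length offsets all 10 members were called as higher in XX mice, from 0.19 for Gstm6 to 0.99 for Gsta2, and the same held with 1 surrogate variable. Calls were also more common over all genes in these fits. With the offsets 5461 of 13848 genes were called as higher in XX mice and 2039 as lower. With the surrogate variable 4647 of 15414 were called as higher and 2738 as lower.

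Separated by treatment, 3 members were called as higher in XX in Intact mice (Gstm1, Gstm3 and Gstm4), beside 10.7% of all genes (4.27% higher), and 6 in GDX mice (Gsta2, Gstm1, Gstm3, Gstm4, Gstm6 and Gstt1), beside 34.3% (19.5% higher). Of the genes called, 39.9% were higher in XX mice in Intact (24.5% with library totals, 63.3% with the offsets) and 56.8% in GDX mice (18.8 and 71%). In GDX mice the call of Gstm6 was lost in 6 of 9 other settings (0.03 to 0.17, the lowest with library totals) and that of Gstt1 in 4 (0.14 to 0.28). With library totals the calls of Gstm3 (0.56, edgeR adjusted p = 0.093) and Gstm1 (0.29, edgeR adjusted p = 0.16) were lost too, and without the filter on low counts that of Gstm3 (0.65, edgeR adjusted p = 0.057). In GDX mice Gstm4 did not overlap, with 28.4 to 39.1 CPM in XX and 15.1 to 25.4 CPM in XY mice, a log2 fold change of 0.63 ± 0.10 (edgeR adjusted p = 1.1e-06). In Intact mice it overlapped, with 33.9 to 51.4 and 23.4 to 50.6 CPM, and the change was 0.38 ± 0.10 (edgeR adjusted p = 0.0060). That call was lost in 2 of 9 other settings.

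Gsta2 in GDX mice had 4.10 to 23.7 CPM (median 9.39) in XX and 2.37 to 6.74 CPM (median 3.53) in XY mice, and 10 of 12 XX mice lay above all XY mice. The log2 fold change was 1.44 ± 0.24 (edgeR adjusted p = 3.7e-06), against 0.44 ± 0.23 (edgeR adjusted p = 0.23) in Intact mice. The difference between these, the chromosomes by GDX interaction, was 1.01 ± 0.33 (edgeR adjusted p = 0.088) and was not called. It was 1.10 and called without XY Te GDX 6. No other member was called in the interaction, beside 2.12% of all genes (327 genes, and 13.8% at an unadjusted p under 0.05).

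Gstm1 in GDX mice had 705 to 1106 CPM (median 987) in XX and 531 to 807 CPM (median 681) in XY mice, a log2 fold change of 0.47 ± 0.12 (edgeR adjusted p = 0.0025), with 10 of 12 XX mice above all XY mice. In Intact mice it was 0.37 ± 0.12 (edgeR adjusted p = 0.048), a call that was lost on leaving out any 1 of 32 mice (0.31 to 0.38). The same call was lost in 4 of 9 other settings. Gstm3 differed by 0.85 ± 0.23 in Intact and 0.72 ± 0.23 in GDX mice (edgeR adjusted p = 0.0089 and 0.010). The Gsta3 levels of GDX mice were the most even of all, with 1642 to 2375 CPM in XX and 1129 to 1719 CPM in XY mice, and the log2 fold change of 0.46 ± 0.20 (edgeR adjusted p = 0.069) was called (0.41, edgeR adjusted p = 3.2e-06) when the spread was estimated from the GDX mice alone. In that fit all members other than Gstt3 were called as higher in XX mice, beside 3954 of 14857 genes called as higher and 3343 as lower. A fit on the Intact mice alone called none of the 3 members called above, with 0.34 for Gstm1, 0.82 for Gstm3 and 0.35 for Gstm4 (edgeR adjusted p = 0.30, 0.053 and 0.071). That fit called 116 of 14322 genes as higher in XX mice and 703 as lower.

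**Figure D4:**
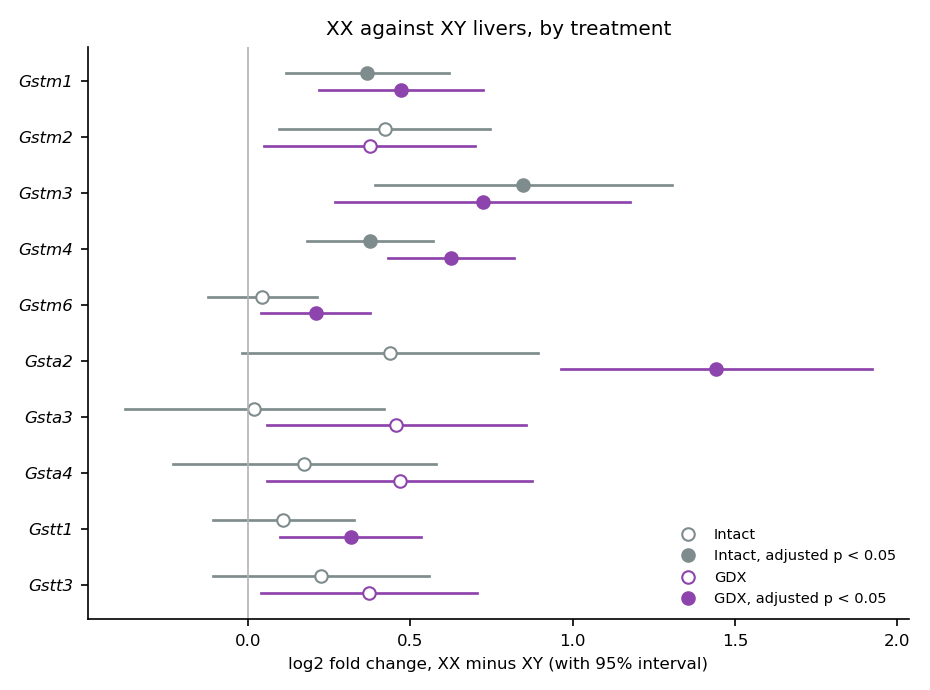
Log2 fold change of XX minus XY (with 95% interval) for each member in Intact and in GDX mice; filled points had an adjusted p under 0.05. All 20 points lie above 0, from 0.02 for Gsta3 in Intact to 1.44 for Gsta2 in GDX mice.

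Markers of several other cells moved with the chromosomes, most clearly in GDX mice. The summed level of 7 Kupffer cell and macrophage markers was 148 to 419 CPM in XX GDX and 402 to 1507 CPM in XY GDX mice, and 215 to 805 and 274 to 971 CPM in Intact mice. The summed level of 6 neutrophil markers was 2.30 to 8.04 CPM in XX GDX and 16.6 to 144 CPM in XY GDX mice, most of it S100a8, S100a9 and Csf3r (named after their values were seen), while Ly6g, which defines the cell, was at 0 in 34 of 48 mice. That of 8 lymphocyte markers was 2.59 to 7.76 and 10.03 to 27.0 CPM, and that of 6 cholangiocyte markers 32.0 to 149 CPM in XX GDX and 23.8 to 45.5 CPM in XY GDX mice. Most of the cholangiocyte sum was Spp1 (median 26.1 CPM, at most 139, named after its values were seen), while Krt19 and Krt7, which define the cell, had medians of 0.409 and 0.528 CPM. In Intact mice the ranges of these sums overlapped. The neutrophil sum was 2.27 to 38.3 CPM in XX Intact and 6.01 to 718 CPM in XY Intact mice. The lymphocyte sum was 1.75 to 16.7 and 4.31 to 44.6 CPM, and the cholangiocyte sum 16.7 to 133 and 8.48 to 42.0 CPM. The sum of 4 adipocyte markers, nearly all Fabp4 (named after its values were seen), was 6.03 to 19.8 CPM in XX GDX and 20.2 to 55.3 CPM in XY GDX mice. That of 6 sinusoidal endothelium markers was 132 to 304 and 191 to 430 CPM. That of 8 stellate cell and fibroblast markers had close medians there (431 and 445 CPM). The summed level of 8 hepatocyte markers, Alb among them, was 75425 to 108495 CPM in XX GDX and 90733 to 111446 CPM in XY GDX mice. The part of these differences in the chromosomal results was not tested.

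When the 8 groups were ordered by median, the ranges of neighbouring groups overlapped at every step for 9 of the 10 members, and 1 step stood apart for Gstm4, between XX Te GDX and XY Te GDX. XX Te Intact had the highest median for all 5 mu genes and XX Ov Intact for the 3 alpha and 2 theta genes. XY Ov GDX had the lowest median for Gstm1, Gstm4, Gstm6, Gsta2, Gsta3 and Gsta4. From the lowest to the highest group median the ratio ran from 1.52 for Gstm6 to 4.25 for Gsta4.

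The genes whose log2 levels over the 48 mice were most like those of a member were named by Pearson's r, as a description over mice that share libraries and treatments. For Gsta3 they were Rbbp9 and Nipsnap1 (r = 0.967 for both), for Gsta4 Rarres2 (0.957) and Nqo2 (0.952), and for Gstt1 Bphl (0.952) and Hadh (0.941). Within GDX mice alone these 6 values were 0.834 to 0.921. For the mu genes they were Prune and Abhd4 for Gstm1 (0.820 and 0.808), Rab1b and Nadk for Gstm2 (0.731 and 0.676), Anxa5 and Ifi27l2b for Gstm3 (0.826 and 0.795), Cbara1 for Gstm4 (0.856), and Blmh and Mpv17l for Gstm6 (0.816 and 0.815). Gsta2 was most like Krt23 (0.823 over all, 0.481 in Intact and 0.905 in GDX mice) and Prpsap1 (0.815), and Gstt3 most like Shmt1 (0.814) and Mosc2 (0.807).

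Other genes of glutathione metabolism were taken by list, and their counts stand beside 69.4% of all genes called after ovariectomy, 63.3% after castration and 25.3% in the gonadal contrast. The length balance moved with removal of the gonads, so counts with the GC and length offsets are given as well. In that fit, of 13848 genes, 3777 were called as higher and 4251 as lower after ovariectomy, and 3288 and 4545 after castration. With ovaries 1600 were called as higher and 2795 as lower. Of 12 tested glutathione transferases outside the 10, 11 were lower and 1 was higher after ovariectomy, 9 were lower and 1 was higher after castration, and 4 were higher and 2 lower with ovaries. With the offsets these counts were 4 lower and 2 higher, 5 lower and 2 higher, and 3 higher and 3 lower. Gstp1, the pi class enzyme, had the widest values, as it had a mean of 99.5 CPM in Ov Intact and 339 CPM in Te Intact mice (log2 fold change -1.71 ± 0.17, edgeR adjusted p = 6.3e-11) and fell by 2.29 ± 0.17 on the log2 scale after castration (edgeR adjusted p = 2.2e-14). Its near copy Gstp2 was lower with ovaries (-0.77), at a mean of 0.618 CPM over all mice without TMM scaling (136 CPM for Gstp1). Whether Gstp1 reads were counted as Gstp2 was not tested. Gsta1, which shares stretches of sequence with Gsta2, fell by 1.55 after castration, from a mean of 2.04 to 0.666 CPM (-1.03 with the offsets, not called, edgeR adjusted p = 0.13). Hpgds, a sigma class enzyme that makes prostaglandin D2, was higher with ovaries (0.74) and after castration (1.21), and the microsomal Mgst3 was higher with ovaries (0.995).

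Of 15 tested genes of glutathione synthesis and recycling, 2 were higher and 4 lower with ovaries, and 3 were higher and 6 lower after castration, and the counts with the offsets were equal to these. After ovariectomy 4 were higher and 7 lower (3 and 6 with the offsets). Gclc, the catalytic subunit of the enzyme that limits glutathione synthesis, was lower with ovaries (-0.49), as was Glo1 (-0.52), and Ggct and Ggt5 were higher (0.34 and 0.49). After castration Chac2 and Hagh fell (-1.33 and -0.85) and Ggt6 and Ggt5 rose (0.42 and 0.71). Of 6 glutathione peroxidases, Gpx7 was higher with ovaries (0.75), and after castration Gpx4 and Gpx1 fell (-1.68 and -0.93) and Gpx3 rose (0.44). With the offsets Chac2 was at -0.53, Gpx4 at -1.36 and Gpx1 at -0.54 after castration. The peroxidases moved after ovariectomy too, with 1 called as higher and 5 as lower (1 and 2 with the offsets). Their median log2 fold change was -0.85 after ovariectomy and -0.18 after castration.

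Of 7 export pumps, which move conjugates across the hepatocyte membrane, Abcg2 and Abcc3 were among 3 that were lower with ovaries (-1.09 and -0.43) and Abcc4 was higher (0.86). After castration Abcg2 was the 1 that fell (-1.25) and 5 rose, the widest being Abcc1 and Abcc5 (1.32 and 1.24), which are long transcripts (6792 and 5811 nt). With the offsets 4 rose and 1 fell, with Abcc1 at 0.93 and Abcc5 at 0.90. The pumps also moved after ovariectomy, where 6 rose and 1 fell (5 and 0 with the offsets). Of 19 genes of the NRF2 pathway, 1 was higher (Nqo1, 0.82) and 4 were lower with ovaries, among them Aox1 and Osgin1 (-0.88 and -0.61), and 5 rose and 7 fell after castration, the widest being G6pdx and Hmox1 (0.77 and 0.57) and Prdx1 and Fth1 (-1.56 and -0.83). With the offsets 3 NRF2 pathway genes rose and 10 fell after castration, with Fth1 at -0.38. After ovariectomy 4 of them rose and 5 fell (3 and 8 with the offsets). In the chromosomal contrast 5 of the 12 other transferases were higher in XX mice and 1 was lower, and of the NRF2 pathway 6 were higher and 3 lower, beside 36.7% of all genes called (21.9% higher and 14.8% lower), with list medians of 0.17 and 0.12 beside 0.05 over all genes. With the offsets 8 were higher and 1 lower, and 10 higher and 3 lower, beside 5461 of 13848 genes called as higher and 2039 as lower in that fit.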

How the data were processed

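Total liver RNA of 48 FCG mice was made into libraries with an mRNA kit. The authors aligned the reads to GRCm39 and counted them per gene with STAR (version 2.7.10a per the labels), and deposited whole-number counts, not normalized. The annotation release, the strand setting, trimming and the read length of these libraries are not given in the sources used here. The study's own tests were DESeq2 contrasts. Another 4 rows of unassigned reads (25.5 to 42.3% of reads per mouse) were left out of library sizes and tests. A level of 3 reads equals 0.150 to 0.230 CPM. These reads carry no molecular identifiers, so this floor covers counting error only.

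Groups came from the genotype and treatment labels. The counts of all 48 mice entered 1 model with a term per group, fitted by edgeR 4.0.16 (R 4.3.3) after filterByExpr and TMM scaling. Contrasts were tested by quasi-likelihood with robust dispersions, and p-values were adjusted by Benjamini-Hochberg over 15414 genes, with calls at 0.05. Alternatives were DESeq2 size factors, library totals, 2 other filters on low counts, DESeq2's Wald test (version 1.42.0), the compared groups alone, 1 surrogate variable (sva 3.50.0), offsets from loess curves (span 0.3) on GC content and transcript length (13848 genes, 89.8%), and leaving out each mouse. Leaving out 3 libraries together was chosen after seeing the data. The fit was tried on counts simulated with the same spread for all genes and groups and with changes in Te Intact mice. Of 197 changed genes it called 177 in the gonadal and 171 in the castration contrast, with 4 and 5 false calls. As the spread was equal, this cannot show how the fit handles the uneven spread of Intact and GDX mice. Libraries of a group differed by more than sampling noise. Each mouse gave 1 library, so no value rests on technical repeats.

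The members and gene lists were chosen with earlier results of these data known. Named genes are the members, up to 2 highest and 2 lowest called changes per list in the gonadal and castration contrasts, and the 2 genes most like each member over all mice (log2 of CPM plus 0.01). One gene that this rule names is not reported here. The length balance used log2 of CPM plus 0.5. Symbols were matched to 31020 identifiers (56.0%), and lengths and coding sequences came from GENCODE vM1 on NCBIM37. Python (version 3.11.15), numpy (2.4.6), pandas (2.3.3), scipy (1.17.1) and matplotlib (3.10.9) were used.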

Additional observations from a re-analysis of the deposited data

Results flagged for a closer look

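Each of the 10 members was looked at in each of the 8 groups for a mouse far from the other 5 (80 groups; chance gives such a mouse in about 5% of groups), and 4 were found, each of them the highest of its group. Gstm3 was at 41.1 CPM in XY Ov Intact 2, against 13.3 to 21.3 CPM in the other mice, and at 30.0 CPM in XY Te Intact 5, against 11.9 to 17.8 CPM. Gstm4 was at 36.4 CPM in XX Te GDX 5, against 28.9 to 31.1 CPM. Gsta2 was at 23.7 CPM in XX Te GDX 2, against 6.16 to 12.7 CPM. No difference of an effect between groups passed the test for a member.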

How the results depend on the processing

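No paired analysis was possible because each mouse has an identifier of its own and no replicate number links the groups in the labels. Under the alternatives other than leaving out 1 mouse, the count of members called differed by over 1.5 times from the edgeR fit of all mice in 5 contrasts. For the gonadal contrast (2 members) it was 1 without a filter beyond 1 count, 1 with the compared groups alone and 1 without the 3 libraries together. For the chromosomal contrast (7) it was 4 with library totals, for castration (7) 4 with the GC and length offsets, for XX against XY in Intact mice (3) 1 with library totals and 0 with the compared groups alone, where 819 of all genes were called in edgeR, and in GDX mice (6) 2 with library totals and 3 without a filter. Leaving out each mouse gave 0 to 3 members for the gonadal contrast (0 without XX Ov Intact 6), 0 to 1 for castration minus ovariectomy and for the chromosomes by GDX interaction, 5 to 9 for the chromosomal, 6 to 8 for the castration and 6 for the ovariectomy contrast.

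Changes of sign concerned values that were not called, apart from Gstm6 after ovariectomy (-0.30, called), at 0.22 with the offsets. In the gonadal contrast Gstm2 was at -0.018 and Gsta3 at -0.17 with the offsets, and Gsta3 at -0.28 with the surrogate variable, where it was called (edgeR adjusted p = 0.015). After ovariectomy Gstm1 was at -0.25 with the surrogate variable (edgeR adjusted p = 0.029) and -0.0049 without the 3 libraries, Gstm2 at 0.040 with library totals and 0.34 with the offsets, Gstm3 at -0.088 with the surrogate variable, and Gstt3 at 0.051 with library totals and 0.10 with the surrogate variable. After castration Gstm2 was at 0.14 with library totals, 0.0022 with at least 10 counts in every mouse and 0.27 with the offsets, and Gstm3 at -0.080 with the surrogate variable and -0.021 without the 3 libraries. For XX against XY in Intact mice Gsta3 was at -0.00045 with library totals, -0.0068 with at least 10 counts, -0.0057 with the compared groups alone and -0.23 without the 3 libraries, where Gsta4 was at -0.025 and Gstm6 at -0.012. On leaving out single mice the ranges that crossed 0 were -0.0067 to 0.26 for Gsta3 in the gonadal contrast, -0.030 to 0.060 for Gstm1 after ovariectomy, -0.11 to 0.025 for Gstm2 and -0.061 to 0.19 for Gstm3 after castration, and -0.17 to 0.17 for Gsta3 and -0.0061 to 0.085 for Gstm6 in Intact XX against XY mice. The causes were not tested.

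The Gstm1 gonadal call was lost without XX Te Intact 1, 2, 4 or 6, XY Te Intact 4, 5 or 6, XX Ov Intact 1, 2 or 6, XY Ov Intact 4, 5 or 6, or XY Ov GDX 3 or 6. The chromosomal call of Gstt3 was lost without any 1 of 20 mice (0.22 to 0.29), that of Gstt1 without XX Ov Intact 6 (0.14), and in GDX mice that of Gstm6 without any 1 of 26 (0.13 to 0.22) and that of Gstt1 without XY Te Intact 3, XY Ov Intact 6 or XX Ov Intact 6 (0.235 to 0.242). Calls gained on leaving out 1 mouse were, in the gonadal contrast, Gsta4 (4 mice, 0.52 to 0.56), Gstt1 (2 mice) and Gstm6 (1 mouse), after castration Gstm1 (3 mice, -0.30 to -0.28), and in the chromosomal contrast Gsta4 (3 mice, 0.36 to 0.37) and Gstm6 (2 mice). Library totals moved the median of all genes by 0.21 after ovariectomy and 0.20 after castration and by -0.18 for XX against XY in GDX mice. Relative to that median Gsta3 fell by 1.28 and 1.04, and Gstm4 in GDX mice was at 0.54. Over all genes, calls in the gonadal contrast were 3907, and 1694 with the compared groups alone. For XX against XY in Intact mice they were 1648, and 940 with at least 10 counts in every mouse, 2561 with the surrogate variable and 2831 with the offsets. In GDX mice they were 5288, and 3491 with at least 10 counts. For castration minus ovariectomy they were 863, and 506 without a filter. For the chromosomes by GDX interaction they were 327, and 545 with library totals, 647 with DESeq2, 579 with the offsets and 747 without the 3 libraries. For Ov against Te after GDX they were 14, and 7 with at least 10 counts and 33 with the compared groups alone, and for the gonads by chromosomes interaction 0, with 3 in DESeq2 and 1 with the surrogate variable.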
